A study of Mus musculus with 9 samples.

Results

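The genes described here are the 10 named members of the megalin-cubilin route of protein reabsorption, Lrp2, Cubn, Amn, Dab2, Clcn5, Ocrl, Fcgrt, Rab11a, Lrpap1 and Ehd1. They were chosen by symbol for their known roles as receptors, partners and recycling proteins of this route, with earlier results of these data known, and all 10 were found among the 24421 genes of the table. RNA was sequenced from tubular epithelial cells of 9 mice, 3 each of the groups named db/db-dapa, db/db and db/m, on a C57BL/6 background and with 1 mouse per library. db/db mice lack a working leptin receptor and are a model of type 2 diabetes, db/m mice are the heterozygous non-diabetic controls, and db/db-dapa mice are db/db mice that drank dapagliflozin, an inhibitor of the glucose transporter SGLT2, at 1.5 mg/kg/day for 8 weeks while the db/db group drank vehicle. The mice of all 3 groups carried a CreERT2 cassette in the Slc34a1 locus (SLC34a1GCE) and the R26tdTomato reporter, and all were given 5 injections of 3 mg tamoxifen at 8 weeks of age, so that the cells labelled were those in which the Slc34a1 promoter was active. Living tdTomato-positive cells were sorted from the kidney cortex by flow cytometry, and the GEO labels give the tissue only as kidney.

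Megalin and cubilin are very large receptors on the apical membrane of proximal tubular cells, where they take albumin, vitamin-binding proteins, hormones and other filtered proteins out of the tubular fluid. Receptor and ligand enter the cell through clathrin-coated pits and reach endosomes that are acidified by a proton pump together with a chloride-proton exchanger, where the ligand is released. The ligand goes on to lysosomes or is passed across the cell, while the receptor returns to the apical membrane through recycling endosomes. Loss of parts of this route in people can lead to proteinuria, as in Dent disease, Lowe syndrome and Imerslund-Gräsbeck syndrome.

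Libraries held between 2733349 and 9033123 counts, with the smallest in db/db replicate 1, and 15583 genes, all 10 members among them, had at least 0.3 CPM (counts scaled to a common library size) in at least 2 of the 9 mice and were tested. A level of 3 counts equals 1.02 CPM in the shallowest library and 0.339 CPM in the deepest, and the lowest member value was 37 counts, so none of the 10 was near the limit of detection. All 12 markers shared by the proximal tubule segments were present, with summed levels of 21385 to 22451 CPM in db/m, 19468 to 27019 CPM in db/db and 23237 to 28401 CPM in db/db-dapa mice. Lrp2 and Cubn are among these 12 markers, so the sums are not independent of the members. Summed markers of the segments differed between groups, where a sum is weighted towards the most abundant genes of its list. The 10 markers of the straight S3 segment summed to 27023 to 38374 CPM in db/m but to 1834 to 4798 CPM in db/db and 4936 to 8728 CPM in db/db-dapa mice, whereas the 9 markers of the convoluted S1 and S2 segments summed to 5155 to 6659, 7380 to 9090 and 8601 to 10287 CPM. In such bulk samples, fewer cells of a kind and less RNA per cell cannot be told apart.

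None of the 10 genes passed the thresholds of the test in any of the 3 comparisons, with a fold limit or without one. Genes were called by the quasi-likelihood F-test of edgeR where the Benjamini-Hochberg p over all genes was under 0.1 and the fold change exceeded 1 on the log2 scale in either direction. For db/db versus db/m mice, 0 of 10 members stood beside 1.26% of all genes tested that passed both thresholds (0.552% higher, 0.712% lower) and 1.7% that passed the adjusted p alone. Of those calls 43.7% were higher, or 60.3% when counts were scaled by total library size. In db/db-dapa versus db/m mice, 0 of 10 stood beside 1.05% (0.578% higher, 0.475% lower) and 1.31%. For db/db-dapa versus db/db mice, 0 genes of the whole table passed (0%), and 5.19% had an unadjusted p under 0.05. At that unadjusted threshold the members numbered 2 of 10 for db/db versus db/m, where 13.7% of all genes lay, 1 of 10 for the drug in db/db mice, and 5 of 10 for db/db-dapa versus db/m, where 18.2% of all genes lay.

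Other tools placed some members past the thresholds. For db/db-dapa versus db/m mice, DESeq2 called 2 of 10, Cubn and Clcn5, beside 3.25% of all genes, limma voom with sample weights called 1, Clcn5, beside 10.4%, and limma-trend called 0 beside 0.937%. The edgeR test itself called Cubn and Clcn5 when fitted to the 6 mice of that comparison alone, beside 4.15% of all genes. At an adjusted p under 0.1 with no fold limit, members there numbered 3 with DESeq2, beside 6.39% of all genes, 7 with voom, beside 31.3%, and 4 in the fit of 6 mice, beside 9.86%. None of the 3 tools called a member for db/db versus db/m, where they called 2.33% (DESeq2), 1.28% (limma-trend) and 1.68% (voom) of all genes, nor for the drug in db/db mice, where they called 0.0834%, 0% and 2.88%. With no fold limit, DESeq2 had Lrpap1 for db/db versus db/m (adjusted p = 0.0567, beside 5.11% of all genes) and voom had Ehd1 for the drug in db/db mice (adjusted p = 0.0895, beside 5.77%). Both comparisons with db/m share the same 3 control mice, and both comparisons with db/db share the same 3 db/db mice.

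The balance of the members differed between mice. The mRNAs of both receptors, of the exchanger Clcn5 and, by a smaller margin, of Ocrl were highest in the same 3 of 9 mice. These were db/db replicate 3 and db/db-dapa replicates 2 and 3. Amn, the membrane anchor of cubilin, was lowest in those 3 mice, as was Fcgrt. The receptors, Clcn5 and Amn had among the widest spreads of the members, with a highest value 3.30 times the lowest for Lrp2, 3.39 times for Cubn, 3.45 times for Amn and 5.89 times for Clcn5. Rab11a, Lrpap1, Dab2 and Ehd1 were steady by comparison, with ratios of 1.57, 1.59, 1.67 and 1.71. Ocrl and Fcgrt lay between, at 2.09 each. The pattern was not limited to the route: over all genes tested, those with long transcripts as a class were higher in the same 3 mice. Genes with short transcripts were lower there, as given below.

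**Figure D1:**
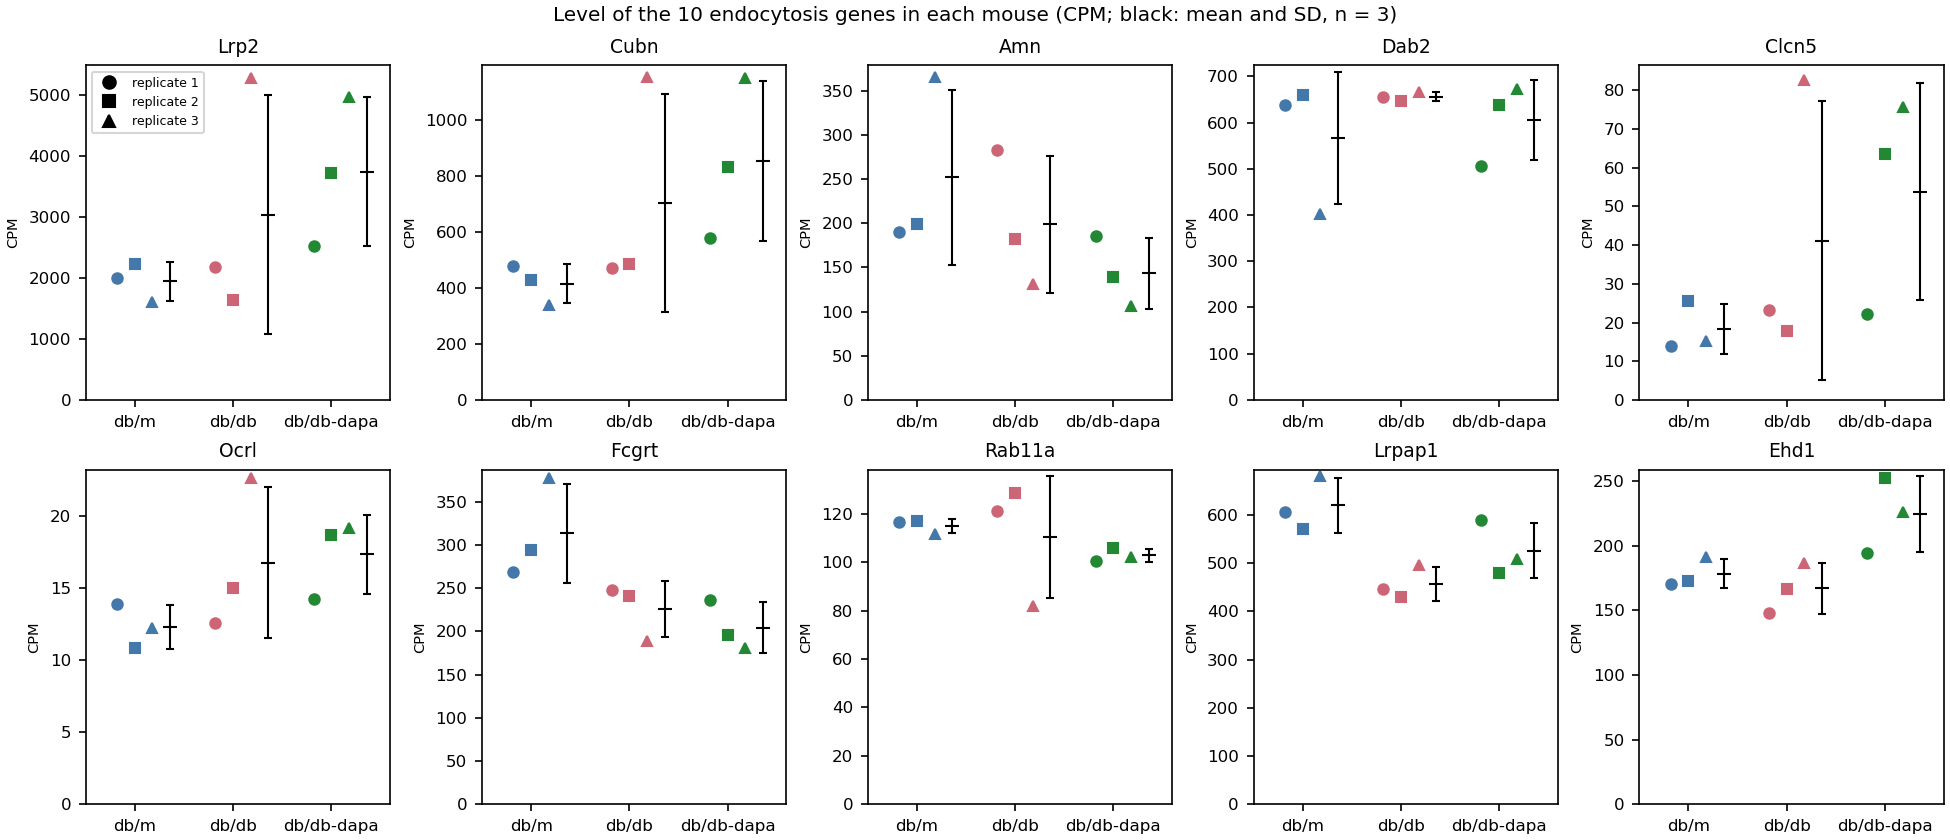
Level of each of the 10 genes in each mouse, in CPM on a linear axis from 0, by group, with 1 symbol per replicate number and the group mean ± SD (n = 3) in black. Lrp2, Cubn, Clcn5 and Ocrl are highest in db/db replicate 3 and db/db-dapa replicates 2 and 3, and Amn and Fcgrt are lowest in those mice.

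Lrp2 (ENSMUSG00000027070, GRCm38 chr2:69424340-69586065, minus strand) encodes megalin, a member of the lipoprotein receptor family and the main receptor of the route. It had 2009, 2226 and 1600 CPM in the 3 db/m mice, 2182, 1646 and 5281 CPM in the db/db mice and 2531, 3720 and 4974 CPM in the db/db-dapa mice. A pair of the db/db mice were within the db/m range and the third stood at more than any other mouse, whereas every db/db-dapa mouse was above every db/m mouse. Group means were 1945 ± 318 CPM for db/m, 3037 ± 1962 CPM for db/db and 3741 ± 1222 CPM for db/db-dapa (SD, n = 3). The log2 fold change was 0.64 (SE 0.39, 95% interval −0.22 to 1.503, edgeR adjusted p = 0.507) for db/db versus db/m, 0.30 (SE 0.39, −0.56 to 1.16, adjusted p = 0.892) for db/db-dapa versus db/db and 0.94 (SE 0.39, 0.08 to 1.81, adjusted p = 0.253) for db/db-dapa versus db/m. A single mouse carried the first value: without db/db replicate 3 it was −0.03, and the db/db-dapa versus db/db value was then 0.98, against 0.00 without db/db replicate 2.

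Cubn (ENSMUSG00000026726, chr2:13276338-13491813, minus strand) encodes cubilin, a receptor with no membrane-spanning part that binds albumin, transferrin and the intrinsic factor-vitamin B12 complex. Its levels were 478, 429 and 341 CPM in db/m, 472, 485 and 1155 CPM in db/db and 579, 831 and 1151 CPM in db/db-dapa mice. The order of the mice was much like that of Lrp2, and again all db/db-dapa mice were above all db/m mice. Cubn had a log2 fold change of 0.76 (SE 0.35, adjusted p = 0.377) for db/db versus db/m, 0.28 (SE 0.35, adjusted p = 0.892) for db/db-dapa versus db/db and 1.04 (SE 0.36, adjusted p = 0.201) for db/db-dapa versus db/m. The first of these was 0.19 without db/db replicate 3, and the second ran from 0.01 without db/db-dapa replicate 3 to 0.85 without db/db replicate 3. Exons of Cubn overlap those of Gm13270 on the opposite strand, and reads of the pair cannot be told apart where strand was not used in counting.

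Within a mouse, Cubn and Lrp2 mRNA kept a close ratio although their levels ranged over 3-fold. There were 23.8, 19.3 and 21.3 Cubn counts per 100 Lrp2 counts in db/m, 21.7, 29.4 and 21.9 in db/db and 22.9, 22.4 and 23.1 in db/db-dapa mice. The group means of the log2 ratio differed by 0.17 for db/db versus db/m (exact permutation test over mice, two-sided, p = 0.4), by −0.08 for db/db-dapa versus db/db (p = 1) and by 0.09 for db/db-dapa versus db/m (p = 0.4), each from 3 against 3 mice, where the smallest p is 0.1. Per kilobase of transcript, cubilin mRNA was the scarcer: the mean level in db/m mice was 126 ± 20.5 CPM per kb for Lrp2 and 36.9 ± 6.15 CPM per kb for Cubn (SD, n = 3).

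Amn (ENSMUSG00000021278, chr12:111271095-111276426, plus strand) encodes amnionless, the small membrane protein that anchors cubilin and is needed for it to reach the apical surface. It ran opposite to its receptor. Amn had 190, 200 and 366 CPM in db/m, 283, 182 and 131 CPM in db/db and 186, 139 and 106 CPM in db/db-dapa mice, so that every db/db-dapa mouse was below every db/m mouse while db/db mice spanned both. The log2 fold change was −0.34 (SE 0.33, adjusted p = 0.686) for db/db versus db/m, −0.47 (SE 0.33, adjusted p = 0.854) for db/db-dapa versus db/db and −0.81 (SE 0.33, adjusted p = 0.247) for db/db-dapa versus db/m. Without db/m replicate 3, the highest of all, the first value was 0.01 and the last −0.45, and the second was −0.13 without db/db replicate 1.

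The number of Amn counts per 100 Cubn counts was 39.8, 46.5 and 107 in db/m, 59.9, 37.6 and 11.3 in db/db and 32.1, 16.7 and 9.21 in db/db-dapa mice. The ratio was thus lower in all db/db-dapa than in all db/m mice, with a log2 difference of −1.78, at the smallest p that 3 against 3 mice can give (exact permutation test, p = 0.1). db/db mice overlapped with both other groups, with differences of −0.99 against db/m and −0.79 for db/db-dapa versus db/db (exact permutation p = 0.4 for each). Single mice moved both: leaving out db/db replicate 3 gave −0.30 for the first and −1.48 for the second, and leaving out db/db replicate 1 gave −1.50 and −0.28.

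The promoters of Lrp2, Cubn and Amn are shown as a description, and their part in the levels of these mRNAs was not tested. The 250 bases that lead up to the start site in RefSeq (GRCm38.p6) are printed 5′ to 3′ on the strand of the gene, in capitals where a searched motif was found, for Lrp2 (chr2:69586030-69586279, minus strand), Cubn (chr2:13491877-13492126, minus strand) and Amn (chr12:111270846-111271095, plus strand).
Lrp2: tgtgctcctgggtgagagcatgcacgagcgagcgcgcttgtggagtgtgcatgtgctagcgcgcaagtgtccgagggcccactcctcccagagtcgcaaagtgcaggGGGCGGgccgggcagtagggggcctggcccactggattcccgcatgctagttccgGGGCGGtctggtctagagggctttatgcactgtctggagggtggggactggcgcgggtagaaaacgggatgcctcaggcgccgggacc
Cubn: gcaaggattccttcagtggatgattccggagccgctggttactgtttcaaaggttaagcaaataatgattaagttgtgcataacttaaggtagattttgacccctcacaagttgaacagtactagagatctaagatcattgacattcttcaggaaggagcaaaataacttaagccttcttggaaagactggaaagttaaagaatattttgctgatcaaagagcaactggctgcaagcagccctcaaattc
Amn: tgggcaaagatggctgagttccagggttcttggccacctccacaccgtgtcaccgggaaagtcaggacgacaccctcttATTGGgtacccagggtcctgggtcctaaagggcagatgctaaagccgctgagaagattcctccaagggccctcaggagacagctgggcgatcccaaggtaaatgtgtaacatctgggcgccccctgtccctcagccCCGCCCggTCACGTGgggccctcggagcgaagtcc

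The promoters of Lrp2 and Cubn differ in composition. The Lrp2 stretch holds 18 CG dinucleotides and 66.4% G or C, that of Cubn 2 and 39.6%, and that of Amn 11 and 61.2%, beside a median of 6 CG dinucleotides over 32851 RefSeq promoters. 6 motifs were searched on both strands. The HNF1 half-site GTTAAT is in 6.43% of those promoters, and the nuclear receptor half-site AGGTCA is in 14.0%. The CCAAT box is in 33.9% of them, and the GC box, written GGGCGG, is in 32.7%. The TATA box, searched as TATAAA, is in 12.4%, and an E-box of the lysosomal CLEAR type, searched as TCACGTG, is in 3.13%. No match overlapped with another in the 3 stretches shown. Counted back from −1 at the last printed base, the first bases of the matches lie at −143 and −88 for Lrp2, both GC boxes, and at −171, −35 and −27 for Amn, of which the first is a CCAAT box and the second a GC box, both on the opposite strand, and the last an E-box. None of the 6 is in the Cubn stretch. A match of letters is a description only. Of the other members, 6 had a promoter sequence. Matches were an HNF1 half-site in 1 of 2 Dab2 stretches, a TATA box and a GC box in the 2 Clcn5 stretches, 2 GC boxes in Ocrl, 3 matches in Rab11a, 5 GC boxes in Lrpap1 and none in Fcgrt.

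Dab2 (ENSMUSG00000022150, chr15:6299788-6440712, plus strand) encodes the clathrin adaptor that binds the tail of megalin. It was the steadiest gene within the db/db group, with 654, 647 and 666 CPM there, 638, 659 and 402 CPM in db/m and 507, 637 and 673 CPM in db/db-dapa mice. The groups overlapped in every comparison, with log2 fold changes of 0.21 (95% interval −0.25 to 0.67), −0.12 (−0.57 to 0.34) and 0.10 (−0.36 to 0.56) for db/db versus db/m, db/db-dapa versus db/db and db/db-dapa versus db/m (adjusted p = 0.694, 0.926 and 0.823). Because megalin mRNA was higher in some mice and its adaptor was not, there were 31.7, 29.6 and 25.1 Dab2 counts per 100 Lrp2 counts in db/m but 20.03, 17.1 and 13.5 in db/db-dapa mice, with no overlap (log2 difference −0.78, exact permutation test p = 0.1). db/db mice had 30.0, 39.3 and 12.6. A processed pseudogene, Gm18888, overlaps Dab2 exons on the opposite strand.

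Lrpap1 (ENSMUSG00000029103, chr5:35091501-35105766, minus strand) encodes the receptor-associated protein, the chaperone that keeps megalin from binding ligands in the endoplasmic reticulum. It had 607, 571 and 681 CPM in db/m, 447, 429 and 497 CPM in db/db and 589, 480 and 509 CPM in db/db-dapa mice. All db/db mice were below all db/m mice, and db/db-dapa mice overlapped with both. Lrpap1 had a log2 fold change of −0.44 for db/db versus db/m (SE 0.16, 95% interval −0.80 to −0.08, unadjusted p = 0.0214, edgeR adjusted p = 0.266), the lowest p of the members there. It was 0.20 (SE 0.16, adjusted p = 0.854) for db/db-dapa versus db/db and −0.24 (SE 0.16, adjusted p = 0.435) for db/db-dapa versus db/m. Per 100 Lrp2 counts there were 30.2, 25.7 and 42.6 Lrpap1 counts in db/m, 20.5, 26.1 and 9.41 in db/db and 23.3, 12.9 and 10.2 in db/db-dapa mice, lower in every db/db-dapa than in every db/m mouse (log2 difference −1.14, exact permutation test p = 0.1).

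**Figure D2:**
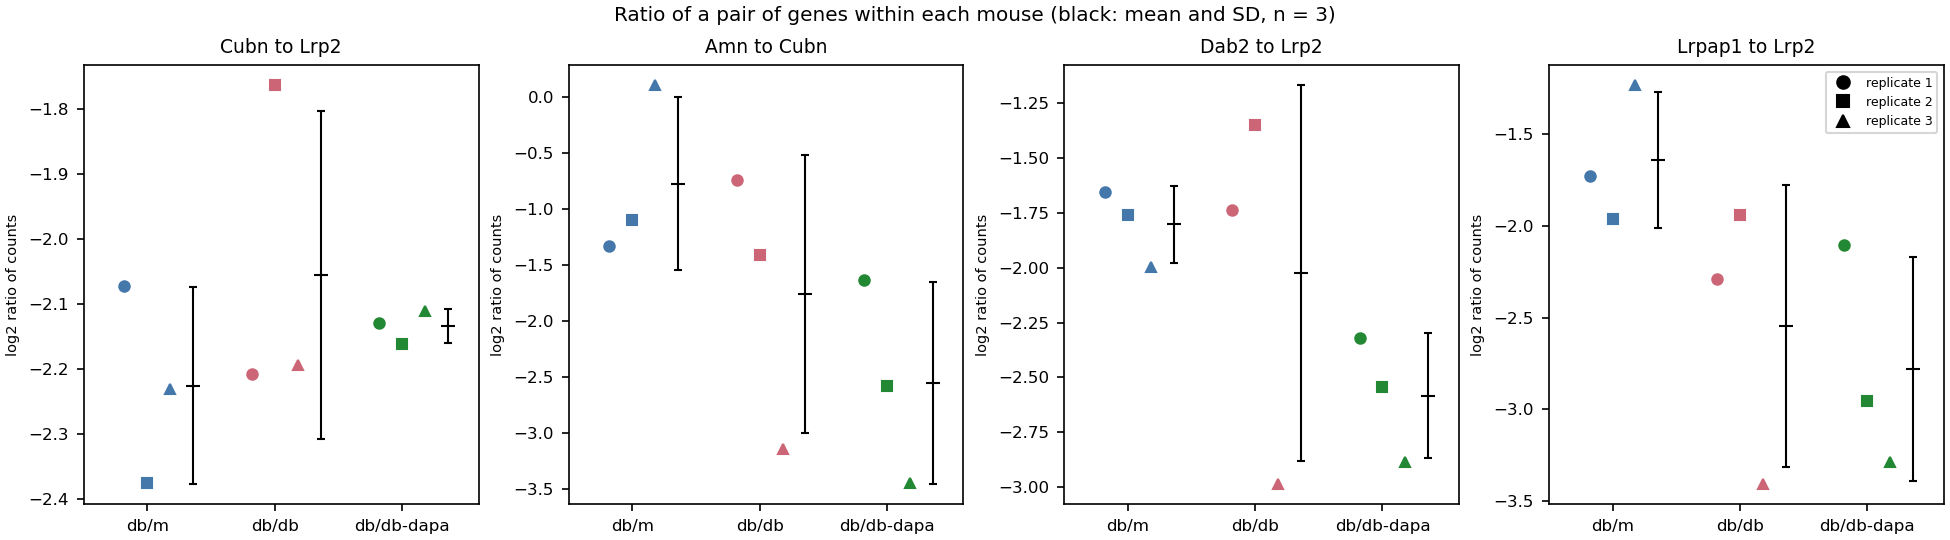
Ratio of the counts of a pair of genes within each mouse, as log2 on a linear axis that does not start at 0, by group, with the mean ± SD (n = 3) in black. Cubn to Lrp2 overlaps between all groups, and the 3 other ratios are lower in every db/db-dapa than in every db/m mouse, before any correction for transcript length.

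Clcn5 (ENSMUSG00000004317, chrX:7153810-7319358, minus strand) encodes the chloride-proton exchanger ClC-5 of early endosomes, the gene of Dent disease. It was a low-level gene with the widest spread of all: 14.0, 25.6 and 15.1 CPM in db/m, 23.1, 17.8 and 82.6 CPM in db/db and 22.1, 63.7 and 75.6 CPM in db/db-dapa mice. The 3 mice with high receptor mRNA had 63.7 CPM or more and the other 6 had 25.6 CPM or less, and groups overlapped in each comparison. Clcn5 had a log2 fold change of 1.20 (SE 0.58, 95% interval −0.07 to 2.47, adjusted p = 0.39) for db/db versus db/m, 0.36 (SE 0.55, −0.85 to 1.57, adjusted p = 0.908) for db/db-dapa versus db/db and 1.56 (SE 0.58, 0.30 to 2.82, adjusted p = 0.218) for db/db-dapa versus db/m. Without db/db replicate 3 the first was 0.14 and the second 1.42. The spread of Clcn5 over the 9 mice (SD of log2 CPM 0.98) was at the 98.5th percentile of the genes tested.

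Ocrl (ENSMUSG00000001173, chrX:47912387-47965868, plus strand) encodes the phosphatase of phosphatidylinositol 4,5-bisphosphate on endosomes and coated pits, the gene of Lowe syndrome. It was a low-level gene too and varied less than Clcn5, with 13.9, 10.8 and 12.2 CPM in db/m, 12.6, 15.01 and 22.6 CPM in db/db and 14.2, 18.6 and 19.1 CPM in db/db-dapa mice. Its means of 12.3, 16.7 and 17.3 CPM in these groups were below the 18.3, 41.2 and 53.8 CPM of Clcn5. All db/db-dapa mice were above all db/m mice by a narrow margin. Its log2 fold change was 0.46 (SE 0.25, adjusted p = 0.454) for db/db versus db/m, 0.03 (SE 0.25, adjusted p = 0.986) for db/db-dapa versus db/db and 0.49 (SE 0.25, adjusted p = 0.311) for db/db-dapa versus db/m. The first was 0.17 without db/db replicate 3.

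The remaining members act on the return and sorting of cargo. Fcgrt (ENSMUSG00000003420, chr7:45092990-45103851, minus strand) encodes the heavy chain of the neonatal Fc receptor, which binds albumin and IgG in acid endosomes and spares them from lysosomes. Its levels were 269, 294 and 377 CPM in db/m, 248, 241 and 189 CPM in db/db and 237, 196 and 181 CPM in db/db-dapa mice. Every db/db mouse and every db/db-dapa mouse was below every db/m mouse. The log2 fold change was −0.47 (SE 0.19, 95% interval −0.90 to −0.05, unadjusted p = 0.0328, edgeR adjusted p = 0.313) for db/db versus db/m, −0.14 (SE 0.19, adjusted p = 0.894) for db/db-dapa versus db/db and −0.62 (SE 0.19, −1.04 to −0.19, adjusted p = 0.178) for db/db-dapa versus db/m. The last of these had the lowest p of any member in any comparison, at 0.00857 before adjustment.

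Rab11a (ENSMUSG00000004771, chr9:64715299-64737758, minus strand) encodes the small GTPase of recycling endosomes. It was the member that varied least, at 117, 117 and 112 CPM in db/m, 121, 129 and 81.7 CPM in db/db and 101, 106 and 102 CPM in db/db-dapa mice. db/db-dapa values were all below those of db/m, by a log2 fold change of only −0.16 (95% interval −0.56 to 0.24, adjusted p = 0.641). The other differences were −0.06 for db/db versus db/m (−0.46 to 0.34, adjusted p = 0.91) and −0.10 for db/db-dapa versus db/db (−0.50 to 0.30, adjusted p = 0.926).

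Ehd1 (ENSMUSG00000024772, chr19:6276725-6300096, plus strand) encodes an ATPase that shapes the tubules by which receptors leave recycling endosomes. It was the 1 member whose db/db-dapa values were all above those of db/db, with 195, 253 and 226 against 148, 166 and 187 CPM, while db/m mice had 170, 173 and 191 CPM. The log2 fold change of db/db-dapa versus db/db was 0.43 (SE 0.17, 95% interval 0.06 to 0.79, unadjusted p = 0.0264, edgeR adjusted p = 0.854). It was −0.09 (SE 0.17, adjusted p = 0.841) for db/db versus db/m and 0.33 (SE 0.17, adjusted p = 0.305) for db/db-dapa versus db/m, where groups did not overlap either.

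Counted together, 2 of 10 members had no overlap between db/db and db/m mice (Fcgrt and Lrpap1, both lower), beside 16.4% of all genes tested, 8.28% higher and 8.14% lower. With the drug in db/db mice it was 1 of 10 (Ehd1, higher), beside 10.2% of all genes, 4.9% higher and 5.29% lower. For db/db-dapa versus db/m it was 7 of 10, with Lrp2, Cubn, Ocrl and Ehd1 higher and Amn, Fcgrt and Rab11a lower, beside 28.1% of all genes, 14.4% higher and 13.7% lower. The median log2 fold change of the 10 members was 0.08, 0.12 and 0.22 in the comparisons db/db versus db/m, db/db-dapa versus db/db and db/db-dapa versus db/m, and that of all genes tested was 0.02, −0.01 and −0.02.

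Among the 10, the order of mean levels per kilobase of transcript in db/m mice began with Lrpap1 at 208 ± 18.9 CPM per kb and Fcgrt at 177 ± 32.1 (SD, n = 3). Amn at 148 ± 58.1, Lrp2 at 126 ± 20.5 and Dab2 at 121 ± 30.6 came next, followed by Ehd1 at 53.1 ± 3.35, Rab11a at 49.2 ± 1.28 and Cubn at 36.9 ± 6.15. Ocrl at 2.34 ± 0.290 and Clcn5 at 2.18 ± 0.766 were the scarcest. The values of neighbours overlapped among the first 5 genes and between Ocrl and Clcn5, whereas those of Ehd1, Rab11a and Cubn did not overlap with each other. Lrp2 headed the order in db/db mice, at 196 ± 127 CPM per kb before Lrpap1 at 154 ± 11.8, with a spread that covered the next 4 genes. In db/db-dapa mice the mean of Lrp2 again came first, at 242 ± 79.0 CPM per kb, before Lrpap1 at 177 ± 18.96, and Amn stood at 84.4 ± 23.6. In single mice Lrpap1 exceeded Lrp2 in db/db replicates 1 and 2 (150 and 144 against 141 and 106 CPM per kb). It did so in db/db-dapa replicate 1 as well (198 against 164).

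The 3 mice with high receptor mRNA stood apart in another way, which bears on these comparisons. Genes with long transcripts as a class were higher in them and genes with short transcripts lower. The 778 tested genes with a transcript over 8 kb deviated from their own mean by a median log2 of 0.40 in db/db replicate 3, 0.19 in db/db-dapa replicate 2 and 0.29 in db/db-dapa replicate 3, against −0.10 to −0.36 in db/m mice and −0.05 to −0.07 in the other 3 mice. The 1193 genes under 1 kb deviated by −0.34, −0.21 and −0.24 in those 3 mice and by up to 0.35 in db/m replicate 3. Of the members that were highest in those mice, Lrp2, Cubn and Clcn5 have the longest transcripts, at 15.46, 11.262 and 8.39 kb. Ocrl, also highest there by a smaller margin, has a transcript of 5.253 kb. The shortest are those of Amn and Fcgrt, at 1.701 and 1.77 kb, and both were lowest in those mice.

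**Figure D3:**
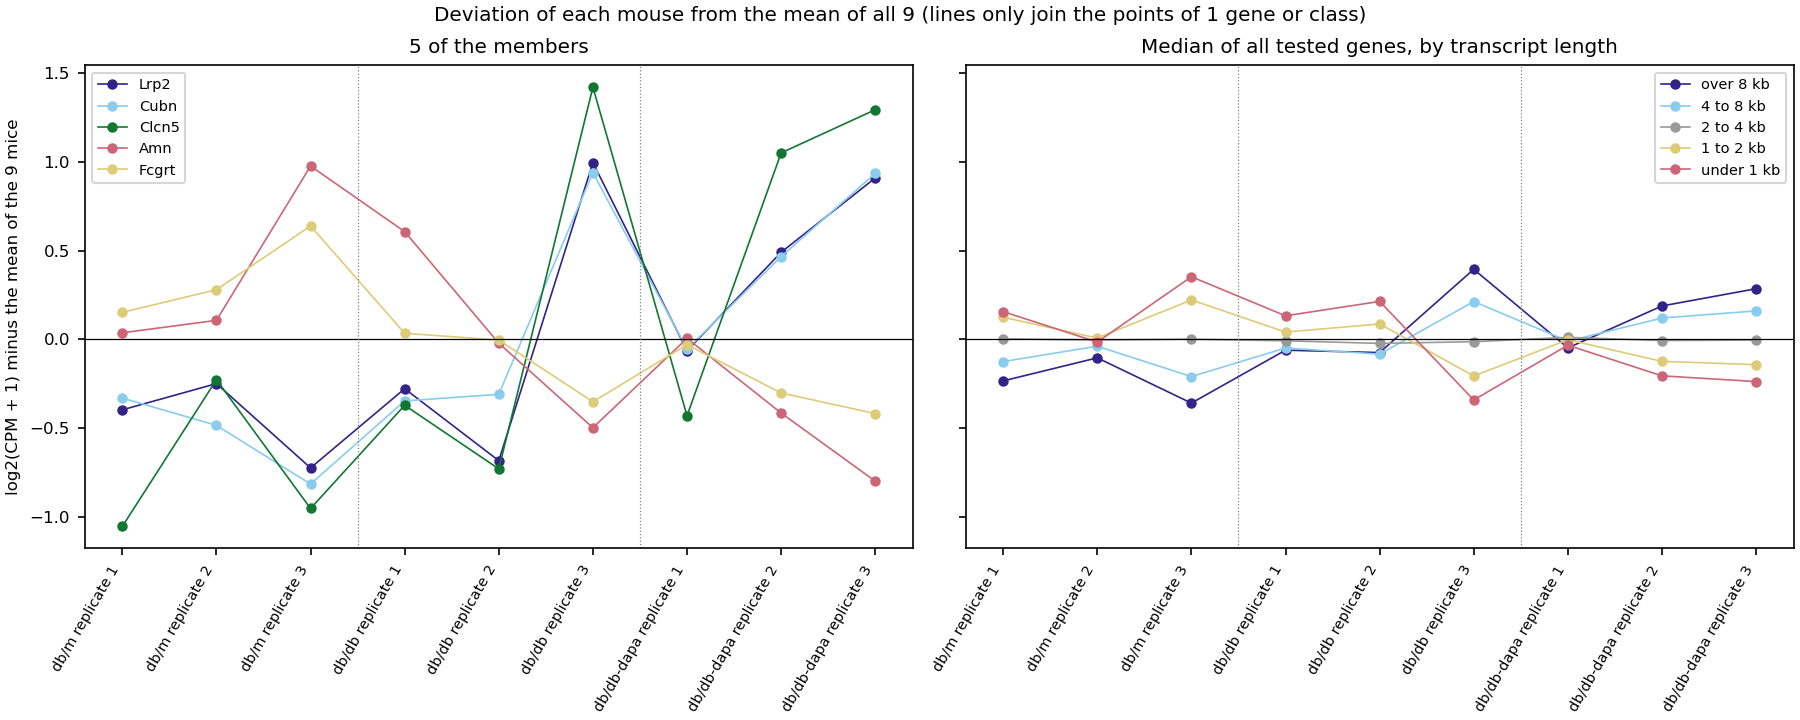
Deviation of each mouse from the mean of all 9 mice in log2(CPM + 1), for 5 members (left) and as the median of all tested genes in 5 classes of transcript length (right), with mice along the horizontal axis by group and lines that only join points of the same gene or class. Lrp2, Cubn and Clcn5 follow the class over 8 kb in direction, with larger deviations (up to 1.42 for Clcn5 against 0.40 for the class in db/db replicate 3). Amn, Fcgrt and the classes under 2 kb are all lowest in db/db replicate 3 and db/db-dapa replicates 2 and 3. They part in db/db replicate 2, with Amn at −0.02 and Fcgrt at −0.004 against 0.21 (under 1 kb) and 0.09 (1 to 2 kb).

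Correcting each mouse for this relation between length and level, an analysis chosen after the data had been seen, left the directions of the receptors in db/db-dapa versus db/m mice but lowered their size. The log2 fold change of Lrp2 became 0.35 (SE 0.24, adjusted p = 0.499), that of Cubn 0.51 (SE 0.22, adjusted p = 0.296), that of Clcn5 1.11 (SE 0.44, adjusted p = 0.273) and that of Amn −0.60 (SE 0.28, adjusted p = 0.328). For db/db versus db/m, the value of Lrp2 went from 0.64 to 0.00 and that of Cubn from 0.76 to 0.25. Lrpap1 and Ehd1 moved less: Lrpap1 was −0.43 (SE 0.14, adjusted p = 0.207) for db/db versus db/m after the correction and Ehd1 0.39 (SE 0.14, adjusted p = 0.744) for db/db-dapa versus db/db. Fcgrt went from −0.47 to −0.33 (SE 0.14, adjusted p = 0.358) for db/db versus db/m and from −0.62 to −0.43 for db/db-dapa versus db/m. Ocrl went from 0.46 to 0.25 for db/db versus db/m and from 0.49 to 0.22 for db/db-dapa versus db/m. All 10 members remained short of an adjusted p under 0.1. With the same correction, the ratio of Amn to Cubn for db/db-dapa versus db/m went from −1.78 to −1.09 on the log2 scale and the groups then overlapped (exact permutation test, p = 0.2). Lrpap1 to Lrp2 went from −1.14 to −0.59 and Dab2 to Lrp2 from −0.78 to −0.44, and in both every db/db-dapa mouse was still below every db/m mouse (exact permutation p = 0.1). The difference in Cubn to Lrp2 widened from 0.09 to 0.17 for db/db-dapa versus db/m and from 0.17 to 0.28 for db/db versus db/m. Groups still overlapped in both (exact permutation test, p = 0.2 for each). For db/db-dapa versus db/db it went from −0.08 to −0.11 (exact permutation p = 0.8). RNA quality was not given for these libraries, and its part in the result was not tested.

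**Figure D4:**
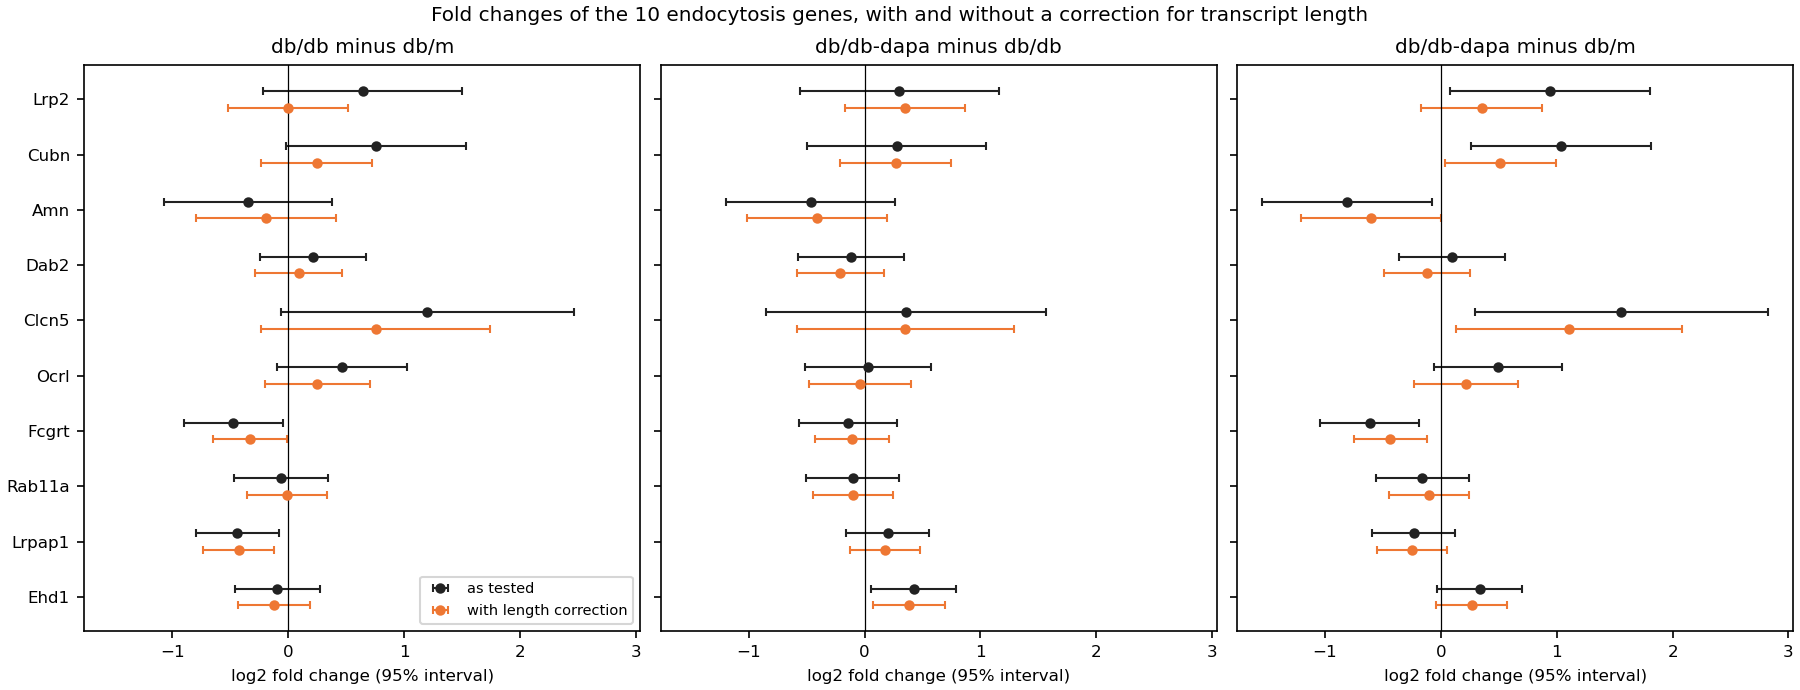
Log2 fold change of each of the 10 genes with its 95% interval in the 3 comparisons, as tested (black) and after the correction for transcript length (orange). The correction moves Lrp2 in db/db versus db/m from 0.64 to 0.00 and leaves Lrpap1 there at −0.43.

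The genes whose pattern over the 9 mice was most like that of Lrp2, among 9125 tested genes with a mean of at least 10 CPM, were Wwc1, Slc25a36, Cog5, Insr and Pdpk1. Likeness was the mean absolute distance between log2(CPM + 1) values, each centred on its own mean, and was 0.066, 0.096, 0.103, 0.117 and 0.118 for these genes. Among the members, Cubn was closest at 0.106, then Clcn5 at 0.309 and Ocrl at 0.320, and Amn was farthest at 0.914. All these distances are over the same 9 libraries, which also share the deviation of long and short transcripts, and the 5 nearest genes have transcripts of 3.61 to 9.355 kb.

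Other genes of the route were read from 6 lists. In the lipoprotein receptor family, to which megalin belongs, 10 of 11 genes were tested and had a median log2 fold change of 0.47 for db/db versus db/m, 0.20 for db/db-dapa versus db/db and 0.67 for db/db-dapa versus db/m. The first median was 0.01 without db/db replicate 3, 0.10 with voom and 0.23 with the length correction, the second ranged between −0.02 and 0.53 when db/db replicate 2 or 3 was left out, in that order, and the third was 0.38 with the length correction. Passing both thresholds were 0, 0 and 1 of the 10, beside 1.26%, 0% and 1.05% of all genes tested. At an unadjusted p under 0.05 there were 3, 0 and 5, beside 13.7%, 5.19% and 18.2%. DESeq2 called 1, 0 and 2 of the 10 (2.33%, 0.0834% and 3.25% of all genes). With limma-trend it was 0, 0 and 1 (1.28%, 0% and 0.937%), and with voom 0, 0 and 2 (1.68%, 2.88% and 10.4%). Lrp5, a co-receptor of Wnt signals, was higher in db/db-dapa mice, with 42.6, 53.0 and 47.6 CPM against 23.0, 20.2 and 20.7 CPM in db/m (log2 fold change 1.16, SE 0.25, edgeR adjusted p = 0.0755). db/db mice had 25.5, 33.4 and 54.7 CPM of Lrp5, all above db/m and overlapping with db/db-dapa mice. The call of Lrp5 was lost when any of 5 of the 6 mice compared was left out, db/db-dapa replicate 1 excepted (adjusted p of 0.157 to 0.364), and with the length correction Lrp5 stood at 0.90, under the fold threshold. In db/db versus db/m mice the gene with the lowest p of this family was Lrp4, at 36.4, 36.6 and 61.5 against 22.8, 23.2 and 17.997 CPM (log2 fold change 1.08, adjusted p = 0.12). With the drug in db/db mice it was Lrp11, at 11.2, 11.4 and 12.1 against 7.14, 7.003 and 11.5 CPM (log2 fold change 0.41, adjusted p = 0.854).

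Below the membrane, few genes passed the thresholds. The edgeR test called 0 of the 30 genes of the clathrin coat and its adaptors, 0 of the 31 of recycling endosomes and 0 of the 33 of endosomal acidification in each comparison, and their median log2 fold changes ran from −0.15 to 0.26. Before adjustment, p fell below 0.05 in 2, 2 and 2 genes of these lists for db/db versus db/m mice, in 4, 6 and 12 for db/db-dapa versus db/m and in 0, 0 and 2 with the drug in db/db mice. The shares of all genes tested were 13.7%, 18.2% and 5.19% in that order of comparisons. Of the clathrin list no other tool called a gene. Of the acidification list DESeq2 called 2 genes for db/db versus db/m and 4 for db/db-dapa versus db/m, where voom called 3, with Clcn6 and Slc9a3 among them each time. Of the recycling list voom called 1 gene for db/db-dapa versus db/m and 2 for the drug in db/db mice. Over all genes, DESeq2 called 2.33% for db/db versus db/m and 3.25% for db/db-dapa versus db/m. Calls by voom were 10.4% of all genes for db/db-dapa versus db/m and 2.88% for the drug. The lowest p-values for db/db versus db/m were those of Clta, the clathrin light chain A (log2 fold change −0.51, adjusted p = 0.21), of Micall1, a partner of Ehd1 on recycling tubules (0.82, adjusted p = 0.14), and of Clcn6, a relative of Clcn5 in late endosomes (1.23, adjusted p = 0.158). Those of Numb (0.61, adjusted p = 0.18), Vamp8 (−0.80, adjusted p = 0.184) and again Clcn6 (1.13, adjusted p = 0.171) were lowest for db/db-dapa versus db/m. With the drug in db/db mice they were those of Hip1r (−0.30), Snx27 (0.44) and Atp6v1g1 (−0.61), at an adjusted p of 0.854 each.

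Of 26 tested genes of the early endosome, 1 passed in db/db versus db/m mice, beside 1.26% of all genes, and 0 in the other comparisons. For db/db-dapa versus db/m and for the drug in db/db mice, 4 and 1 had an unadjusted p under 0.05, beside 18.2% and 5.19% of all genes. There voom called 1 and 0, beside 10.4% and 2.88%. Vps8, a subunit of the CORVET tethering complex, fell in db/db mice, with 28.2, 45.4 and 54.8 CPM against 96.4, 74.0 and 92.9 CPM in db/m (log2 fold change −1.02, SE 0.22, edgeR adjusted p = 0.0685), and stood at 44.9, 43.3 and 46.5 CPM in db/db-dapa mice (−0.97 against db/m, adjusted p = 0.0922, under the fold threshold). The call of Vps8 was lost without db/m replicate 1 or 3 or db/db replicate 1 or 2 (adjusted p of 0.0994 to 0.257, with −0.81 without db/db replicate 1), where the fit held only the pair of groups (adjusted p = 0.179) and on total library size (−0.92). Appl2, which marks a class of early endosomes, was nearest to a difference with the drug, at 48.0, 46.9 and 64.4 CPM in db/db-dapa against 107, 93.4 and 73.5 CPM in db/db mice (log2 fold change −0.78, SE 0.19, unadjusted p = 0.00191, adjusted p = 0.854).

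In a mixed list of scaffolds, partners and ligand handling, written with earlier results of these data known, 24 of 26 genes were tested. In db/db versus db/m mice 3 rose and 1 fell, beside 0.552% of all genes higher and 0.712% lower. The median of the list on the log2 scale was 0.08 there, and its other 20 genes did not pass. At an unadjusted p under 0.05 there were 6 for db/db versus db/m, 1 for the drug in db/db mice and 9 for db/db-dapa versus db/m. Beside these stood 13.7%, 5.19% and 18.2% of all genes. Megalin takes up 25-hydroxyvitamin D bound to its carrier, and both enzymes that act on it rose. Cyp27b1, which makes the active hormone, had 109, 94.2 and 90.9 CPM in db/db against 13.5, 30.2 and 14.9 CPM in db/m mice (log2 fold change 2.32, SE 0.37, edgeR adjusted p = 0.0148). Cyp24a1, which breaks it down, had 646, 337 and 386 against 71.2, 85.8 and 17.3 CPM (2.97, SE 0.48, adjusted p = 0.0182). Gc, the vitamin D-binding protein itself, rose from 14.6, 16.8 and 14.4 to 45.5, 36.8 and 45.6 CPM (1.48, SE 0.27, adjusted p = 0.0316). No db/db value overlapped with a db/m value in any of the 3 genes.

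Sepp1, the selenium carrier protein that is made by several tissues and taken up by megalin in the kidney, fell in db/db mice to 1195, 845 and 871 CPM from 2954, 3546 and 2570 CPM in db/m (log2 fold change −1.64, SE 0.24, edgeR adjusted p = 0.0125). In db/db-dapa mice these 4 genes also passed against db/m, beside 1.05% of all genes tested. The log2 fold changes there were 2.44 for Cyp27b1, 2.40 for Cyp24a1, 1.14 for Gc and −1.27 for Sepp1 (edgeR adjusted p = 0.0171, 0.0585, 0.0995 and 0.0512). Cyp27b1 stood at 57.1, 122 and 140 CPM there, Cyp24a1 at 318, 237 and 369, Gc at 50.5, 24.8 and 25.9 and Sepp1 at 1638, 1101 and 1012. Against db/db mice, the log2 fold changes of the same 4 genes were 0.12, −0.57, −0.34 and 0.37 (adjusted p = 0.955, 0.854, 0.854 and 0.854), with overlap in each. For db/db versus db/m, the calls of Cyp27b1, Cyp24a1 and Sepp1 held with any 1 mouse left out, and that of Gc was lost without db/m replicate 1 (adjusted p = 0.157) or replicate 3 (0.111). For db/db-dapa versus db/m, each of the 4 calls was lost without db/db-dapa replicate 2 or without db/m replicate 1 (adjusted p of 0.106 to 0.336). Cyp27b1 was also lost there without db/m replicate 3 (0.104) and Cyp24a1 without db/db-dapa replicate 3 (0.205). Sepp1 was also lost without db/m replicate 2 (0.128) or db/db-dapa replicate 3 (0.236). The call of Gc there was also lost without any other 1 mouse, with upper-quartile scaling (adjusted p = 0.115), with limma-trend (0.119) and with voom (log2 fold change 0.84).

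**Figure D5:**
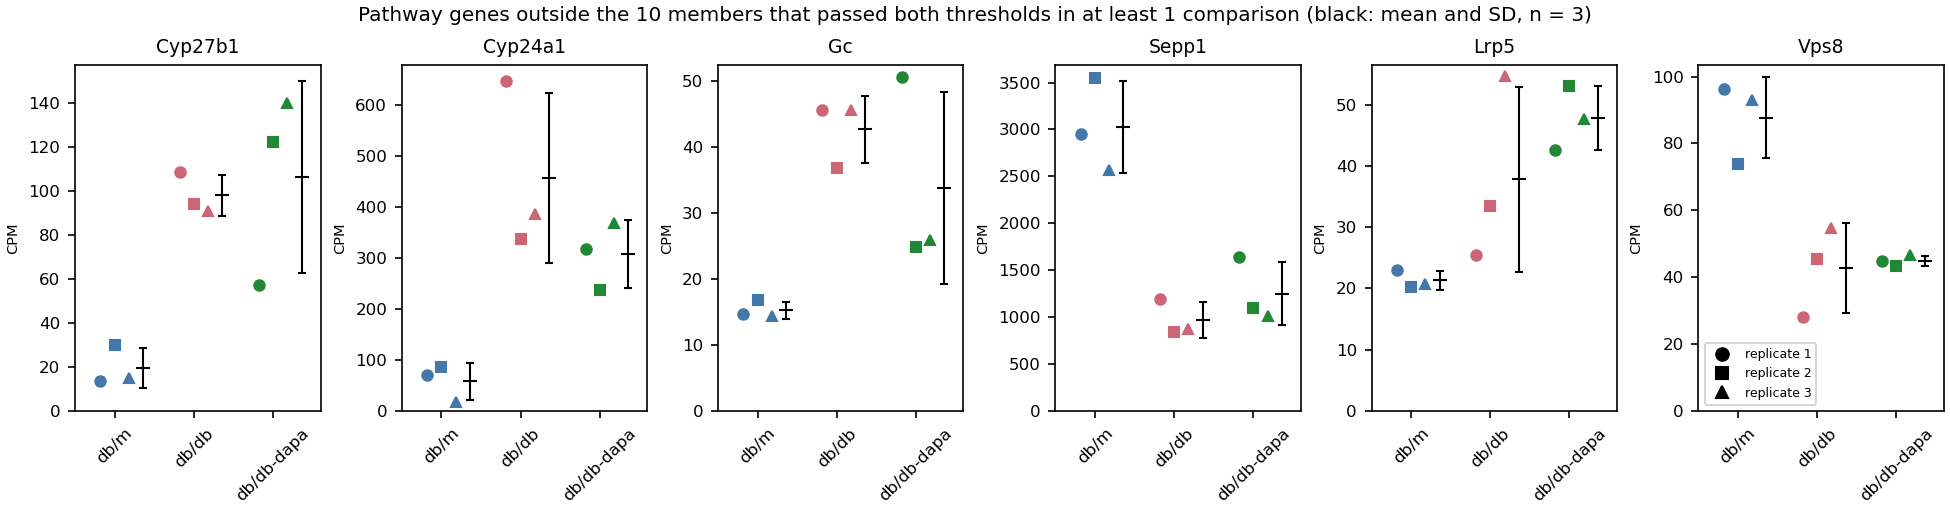
Level in each mouse, in CPM on a linear axis from 0, of 6 genes outside the 10 members that passed both thresholds in at least 1 comparison, with the mean ± SD (n = 3) in black. Cyp27b1, Cyp24a1 and Gc are higher, and Sepp1 and Vps8 lower, in every db/db and every db/db-dapa mouse than in every db/m mouse.

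The summed segment markers moved with the comparisons against db/m throughout. As a sum, the S3 list was lower in every db/db and db/db-dapa mouse than in every db/m mouse and the S1 and S2 list was higher. For both the receptors and the vitamin D genes the part of this shift in the result was not tested. Among markers of other cell types, the 6 of the thick ascending limb and distal tubule summed to 1081 to 2497 CPM in db/m, 807 to 1723 CPM in db/db and 784 to 913 CPM in db/db-dapa mice. The 7 of the collecting duct summed to at most 787 CPM in any mouse, and the 5 erythroid markers to 147 to 421 CPM in db/m, 97.9 to 1462 CPM in db/db and 29.6 to 297 CPM in db/db-dapa mice. Lists of podocytes, endothelium, leukocytes and stroma each summed to at most 265 CPM in any mouse. The 8 genes of tubular injury summed to 826 to 1085 CPM in db/m, 886 to 2061 CPM in db/db and 1089 to 1526 CPM in db/db-dapa mice, and the part of these lists in the results was not tested.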

How the data were processed

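RNA from sorted cells of 9 mice was sequenced in single-end mode from stranded poly(A) libraries. Per the submitters' processing notes, TopHat2 2.0.13, Bowtie2 2.2.3, SAMtools 0.1.19 and Cufflinks 2.2.1 were used with mm10. The deposited table is named for FPKM, but the authors' values are estimated counts per gene: 85.9% of the values above 0 are exact whole numbers. How they were made, and whether counting used strand, is not given in the sources used here, so overlapping genes and near-identical copies are uncertain. Rows that name no gene numbered 0, and so did columns of samples left unused.

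Estimated counts were rounded, scaled by TMM and fitted with edgeR 4.0.16 in R 4.3.3, all 9 mice in 1 model of 3 groups. Genes at 0.3 CPM or more in at least 2 mice were tested. The study's filter used the same number in FPKM, so that it also scaled with transcript length. Scripts were tested on simulated data. The common biological coefficient of variation was 0.259. Ratios of counts were compared by exact permutation tests over mice. Tables of alternatives used DESeq2 1.42.0, limma 3.58.1 (limma-trend, and voom with sample weights), other scalings and filters, fits of 2 groups, a replicate block, each mouse left out in turn, and a correction that removed the lowess trend of log2 CPM on transcript length in each mouse. Transcript lengths, from GENCODE on GRCm38, were found for 98.9% of the genes tested.

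The members and lists were chosen with earlier results of these data known. Besides the members, genes were named by rule: in each list and comparison those called, or else the one with the lowest p, and the 5 genes nearest to Lrp2. A listed gene is not reported here and was left out of its list's counts. Each library is 1 mouse, and p-values cover the spread between these mice. Counting error was under the spread within each group for the members other than Ocrl in db/m (spread 12.4% of the mean, counting error 10.7% to 13.5%), Dab2 in db/db and Rab11a in both other groups, whose spread lay within or below the range of their counting error.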

Additional observations from a re-analysis of the deposited data

How the results depend on the processing

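Members in db/db versus db/m mice at an adjusted p under 0.1 numbered 1 with DESeq2, and with the drug in db/db mice 1 with voom and sample weights. For db/db-dapa versus db/m, DESeq2 called 2 (3 without a fold limit), voom 1 (7 without a fold limit) and a fit of the 2 groups 2 (4 without a fold limit), and no member was called with any 1 mouse left out (0 in every case). Over all genes, DESeq2, voom and the fit of 2 groups called 363, 262 and 114 for db/db versus db/m and 507, 1619 and 626 for db/db-dapa versus db/m, where no filter gave 275. They stand beside 197 and 164 as tested. By adjusted p alone the 265 and 204 genes became 797, 439 and 116, and 996, 4883 and 1486 (368 with no filter), and the 0 genes of the drug comparison 21 with DESeq2 and 899 with voom. Leaving out 1 mouse gave 84 (without db/m replicate 1) to 230 calls for db/db versus db/m, 14 (without db/db-dapa replicate 2) to 254 for db/db-dapa versus db/m, and 0 to 272 (without db/db replicate 3) for the drug in db/db mice, or 85 to 303, 14 to 290 and 0 to 419 by adjusted p alone. The cause of these shifts was not tested.

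Small fold changes turned sign. On total library size, which moved the median of all genes in db/db versus db/m by 0.11 and the share of calls that were higher from 43.7% to 60.3%, Rab11a became 0.0459 and Ehd1 0.0159. With voom, Rab11a was 0.0381 and Amn 0.000103. For the drug in db/db mice, Ocrl was −0.0327 on total library size, −0.0264 with upper-quartile scaling and −0.0373 with the length correction, which also put Dab2 at −0.12 for db/db-dapa versus db/m. That correction moved the log2 ratios of Dab2 and Lrpap1 to Lrp2 in that comparison to −0.44 and −0.59. Over single mice left out, db/db versus db/m ran from −0.0322 to 0.94 for Lrp2, −0.68 to 0.0129 for Amn and −0.19 to 0.11 for Rab11a. The drug in db/db mice gave −0.18 to 0.00634 for Dab2, −0.0050 to 1.42 for Clcn5, −0.13 to 0.33 for Ocrl and −0.27 to 0.0256 for Rab11a, and Dab2 ran from −0.10 to 0.22 for db/db-dapa versus db/m.

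Whether replicate numbers pair mice is not stated in the sources used here. Deviations of same-numbered mice correlated at −0.32 to 0.56, over 0.1 in 3 of 9 pairs. For 4 of 9 mice the best match in another group had their number. Such correlations, within groups of 3 mice, cannot decide the question. With a replicate block no member's call changed, and Gc (1.08) lost its call for db/db-dapa versus db/m (adjusted p = 0.117).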
